A study of Homo sapiens with 24 samples.

Results

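The response of LNCaP cells to Ocoxin was read from the RNA of 6 of the 24 libraries of the series, 3 control and 3 Ocoxin-treated. LNCaP is an established human line of prostatic adenocarcinoma (PRAD), and Ocoxin is a nutritional supplement. The libraries were chosen by their cell line label, and the letters C and O of their titles gave the groups, since the labels attach the 1:50 dilution to the controls as well. The cells were grown with 10% fetal bovine serum, and Ocoxin was given at 1:50 for 48 h in medium with 1% serum, while the medium of the control cells is not given. RNA was taken from adhered cells of this 1 line. The sources do not say that the replicates were separate cultures, so p-values measure the spread between these libraries, which may be technical. The other 18 libraries are BxPC-3 pancreatic cells at 1:500 and SW620 colorectal and HCC-70 breast cells at 1:700, each with 3 controls and 3 treated libraries after 48 h.

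The 6 libraries held 9063968 to 9520969 counts. In this table counts stayed under 1 per exonic base, with a maximum of 0.995, which compresses differences of highly expressed genes. Of the genes tested, 197 exceeded 0.5 counts per base in a library, among them KLK3 and HOXB13, and 1 of these was altered (ENDOD1, named after its values were seen). The 37 mitochondrial genes hold 0 counts. The prostate label fits the markers: the 12 luminal prostate genes summed to 2704 to 2775 CPM (counts scaled to the TMM-normalized library size) in the controls and 2525 to 2642 CPM with Ocoxin. Leukocyte markers summed to 0.763 to 1.33 CPM over all libraries, and 1 of 6 intestinal and 1 of 6 basal markers reached the level needed for a test. Fibroblast markers summed to 67.9 to 75.2 CPM in the controls and 73.5 to 82.4 CPM with Ocoxin. Most of this was COL1A1, while COL1A2 held 0 counts and DCN 3 over the 6 libraries. Endothelial markers summed to 72.4 to 82.9 CPM in the controls and 42.3 to 57.1 CPM with Ocoxin, nearly all of it VWF. On the first principal component, which held 46.8% of the variance, the controls lay at -12.6, -17.5 and -29.7 and the Ocoxin libraries at 31.3, 19.6 and 8.96, so the Ocoxin libraries were apart from the controls and spread among themselves.

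Several stress and growth programs give a frame for these genes. The aryl hydrocarbon receptor (AHR) is a ligand-activated transcription factor that turns on CYP1 monooxygenases and its own repressor. NRF2 is held back by KEAP1 and, once released, turns on enzymes of glutathione synthesis, NADPH supply and quinone and heme breakdown. The integrated stress response (ISR) slows general translation while ATF4 and its partners turn on genes of amino acid supply and stress. E2F factors turn on the genes of DNA replication at the start of S phase, and androgens drive luminal prostate genes.

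The stretches of 250 bases before the RefSeq gene start (GRCh38.p14) are shown for some altered genes of these programs. They were chosen because each holds letters of a site of its program's factor there, so these matches are no support. CYP1A2, NQO1, OSGIN1, UGDH, PIR, CDC45, ORC1, RFC5 and CLSPN, altered too, held none. AHRR and GINS2 also hold such letters, at -30 and -31 from the gene start, and are not shown. Sites of these factors farther from the start were not searched. Promoters were matched by symbol for 11366 of the 17070 genes tested. In each sequence capitals mark, on either strand, the letters searched for its own program alone, and letters of another program's site stay in lower case: GCGTG, the core of the AHR site, TGACNNNGC for NRF2 sites, and TTTCCCGC, TTTGGCGC, TTTCGCGC or TTTGCCGC for E2F sites. CYP1A1 lies at chr15:74725529-74725778 on the minus strand, GCLM at chr1:93909431-93909680 on the minus strand, ME1 at chr6:83431052-83431301 on the minus strand, TXNRD1 at chr12:104215529-104215778 on the plus strand, MCM7 at chr7:100101398-100101647 on the minus strand and LIG1 at chr19:48170345-48170594 on the minus strand.
CYP1A1: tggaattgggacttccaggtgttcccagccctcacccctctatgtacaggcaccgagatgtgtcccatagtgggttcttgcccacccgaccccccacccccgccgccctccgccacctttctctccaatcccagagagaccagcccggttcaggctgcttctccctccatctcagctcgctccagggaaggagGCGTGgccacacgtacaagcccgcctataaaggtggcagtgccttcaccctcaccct
GCLM: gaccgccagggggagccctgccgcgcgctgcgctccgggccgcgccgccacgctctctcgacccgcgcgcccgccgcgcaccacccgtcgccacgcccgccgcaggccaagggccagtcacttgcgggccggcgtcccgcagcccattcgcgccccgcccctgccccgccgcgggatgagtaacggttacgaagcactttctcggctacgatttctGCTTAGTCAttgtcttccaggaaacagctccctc
ME1: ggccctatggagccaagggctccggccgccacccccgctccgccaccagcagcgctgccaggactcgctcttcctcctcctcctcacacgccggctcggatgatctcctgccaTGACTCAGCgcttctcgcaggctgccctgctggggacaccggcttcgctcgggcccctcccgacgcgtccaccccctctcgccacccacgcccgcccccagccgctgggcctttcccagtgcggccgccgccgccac
TXNRD1: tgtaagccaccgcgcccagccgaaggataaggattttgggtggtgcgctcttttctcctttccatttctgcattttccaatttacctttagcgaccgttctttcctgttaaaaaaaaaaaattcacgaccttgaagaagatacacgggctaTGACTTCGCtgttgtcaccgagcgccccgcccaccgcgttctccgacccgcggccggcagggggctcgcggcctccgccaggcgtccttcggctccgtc
MCM7: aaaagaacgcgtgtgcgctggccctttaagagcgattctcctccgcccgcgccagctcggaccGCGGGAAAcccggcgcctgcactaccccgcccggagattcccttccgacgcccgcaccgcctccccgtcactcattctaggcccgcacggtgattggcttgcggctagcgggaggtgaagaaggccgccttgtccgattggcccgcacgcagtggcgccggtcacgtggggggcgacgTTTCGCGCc
LIG1: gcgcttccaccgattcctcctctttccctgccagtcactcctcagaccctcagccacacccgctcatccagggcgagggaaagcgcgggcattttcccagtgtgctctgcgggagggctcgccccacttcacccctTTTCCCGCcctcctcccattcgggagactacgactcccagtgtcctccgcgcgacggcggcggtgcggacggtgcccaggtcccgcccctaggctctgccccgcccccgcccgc

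The marked letters start at position -57 from the gene start in CYP1A1, -34 in GCLM, -137 in ME1, -99 in TXNRD1, -187 and -9 in MCM7 and -114 in LIG1. The AHR core was in 2 of the 3 altered AHR genes and in 4 of the 5 tested ones. It was in 44.9% of all 11366 promoters, so these 5 letters are common. TGACNNNGC was in 3 of the 7 altered NRF2 genes with a promoter, in 5 of the 19 tested ones and in 12.4% of all promoters. The E2F letters were in 3 of the 7 altered DNA replication genes with a promoter, in 13 of the 39 tested ones and in 4.38% of all promoters. TGATGNAAT, an ATF4 site, was in none of the 8 altered ISR genes and in 0.431% of all promoters. A match is a description of letters in this window, and no match says nothing about the factor.

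Ocoxin altered 508 of the 17070 genes tested in LNCaP cells, 2.98% (edgeR's quasi-likelihood test, Benjamini-Hochberg adjusted p under 0.05). Of these, 409 rose (2.4% of the genes tested) and 99 fell (0.58%), so 80.5% of the altered genes rose (95% Wilson interval 76.8 to 83.7%). The genes that rose had a median log2 fold change of 0.64 and those that fell of -0.33, and 124 altered genes changed at least 2-fold, 119 of them upwards. Fitted changes of all genes were 52.4% above 0, with a median of 0.0088. Control and Ocoxin libraries did not overlap in any of the 508 altered genes, and in 4710 of the 17070 genes tested. Non-overlap of an altered gene is thus no support beyond its call. The number of genes that passed fell with each library left out, most for replicate 2 of either group. When Ocoxin replicate 2 was left out, 3 genes were altered (CYP1A1, CYP1A2 and FOXN4, the last named after its values were seen), and when control replicate 2 was, 7. Leaving out Ocoxin replicate 1 gave 100 altered genes and Ocoxin replicate 3 398, and leaving out control replicate 1 gave 182 and control replicate 3 37. The split moved with a correction for gene length and GC content: removal of that trend from each library gave 690 genes that rose and 1785 that fell, with a median of all genes of -0.062, and after each library was put back at its TMM level, a step chosen once that first split had been seen, 734 rose and 336 fell.

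**Figure D1:**
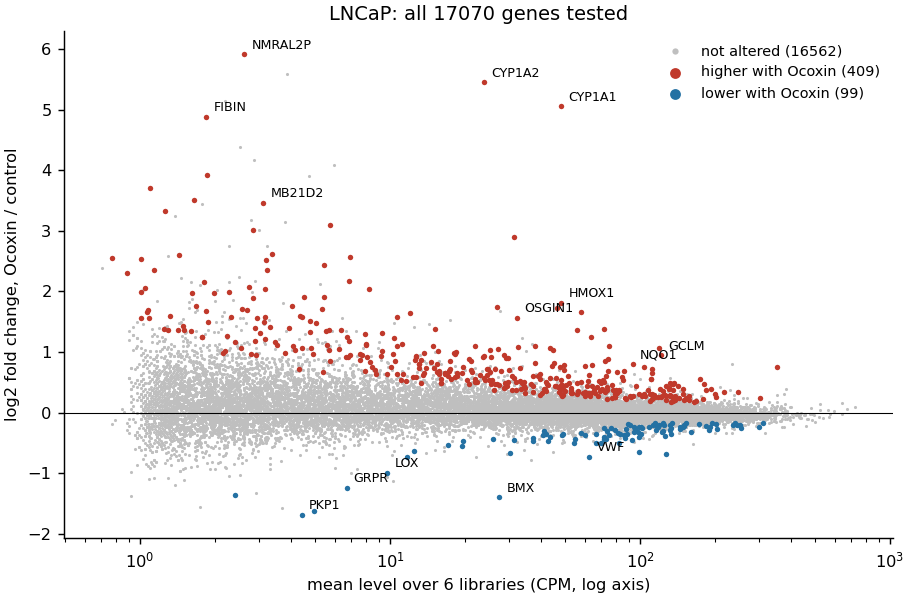
Mean level over the 6 LNCaP libraries (x axis, CPM, log scale) against the log2 fold change of Ocoxin over control (y axis) for the 17070 genes tested, with the 409 genes that rose in red and the 99 that fell in blue. The largest rises, CYP1A1 and CYP1A2 among them, are far larger than the largest falls, such as PKP1 and BMX.

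The genes induced by AHR showed the clearest change. CYP1A1 (ENSG00000140465, chr15:74719542-74725610), a monooxygenase of polycyclic aromatic compounds, was at 3.05, 2.45 and 2.95 CPM in the controls and 119.8, 91.3 and 71.3 CPM with Ocoxin (log2 fold change 5.06 ± 0.26, edgeR adjusted p = 0.000566). CYP1A2 (chr15:74748844-74756202), its neighbor, which oxidizes aromatic amines and caffeine, was at 1.42, 1.17 and 0.546 CPM in the controls and 55.4, 48.5 and 35.5 CPM with Ocoxin (log2 fold change 5.46 ± 0.28, edgeR adjusted p = 0.000566). Every treated library exceeded every control by far in both genes, and both passed the test in all 6 fits that left out 1 library. AHRR, the repressor of AHR and an altered member named after its values were seen, was at 1.74, 2.23 and 1.42 CPM in the controls and 5.88, 5.04 and 3.54 CPM with Ocoxin (log2 fold change 1.41 ± 0.26, edgeR adjusted p = 0.0371) and passed in 1 of those 6 fits. Of the 8 listed AHR genes 5 were tested and 3 rose, against 2.4% of all genes, with a median log2 fold change of 1.41. NFE2L2, the gene of NRF2 (0.13), is counted in this list throughout, and AHR is not. TIPARP, an ADP-ribosyltransferase that represses AHR, had a log2 fold change of 0.63 ± 0.25 without passing the test, and AHR itself 0.63 ± 0.23 (adjusted p = 0.172). CYP1B1 held 0 counts in 5 of the 6 libraries and 1 count in the other.

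NRF2 targets rose as a group in count: 11 of 28 tested members rose and none fell (2.4% and 0.58% of all genes), with a median log2 fold change of 0.35 against 0.0088 for all genes. NQO1, a quinone reductase, was at 69.1, 69.4 and 67.1 CPM in the controls and 128, 118 and 110.3 CPM with Ocoxin (log2 fold change 0.80 ± 0.061, edgeR adjusted p = 0.00623). HMOX1, which breaks down heme, was at 23.3, 21.2 and 19.7 CPM in the controls and 99.3, 79.6 and 46.8 CPM with Ocoxin (log2 fold change 1.82 ± 0.26, edgeR adjusted p = 0.0201). GCLM, a subunit of the enzyme that starts glutathione synthesis and an altered member named after its values were seen, as are OSGIN1, UGDH and PIR, was at 87.8, 79.7 and 81.5 CPM in the controls and 187, 155 and 136 CPM with Ocoxin (log2 fold change 0.94 ± 0.11, edgeR adjusted p = 0.0147). In these 3 genes the treated libraries lay above all controls, and Ocoxin replicate 1 was the highest.

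OSGIN1, a stress-induced growth inhibitor, was at 16.4, 17.9 and 14.8 CPM in the controls and 73.6, 42.4 and 28.9 CPM with Ocoxin (log2 fold change 1.57 ± 0.32, edgeR adjusted p = 0.0482). SLC7A11, the cystine importer, was at 290.5, 282 and 213 CPM in the controls and 477, 446 and 401 CPM with Ocoxin (log2 fold change 0.75 ± 0.12, edgeR adjusted p = 0.025). Its treated libraries did not overlap the controls. Smaller rises were measured for TRIM16L (0.76), ME1 (0.49), which supplies NADPH, UGDH (0.48), PIR (0.28) and TXNRD1 (0.25), the thioredoxin reductase, as log2 fold changes. The aldo-keto reductases AKR1C1, AKR1C2 and AKR1C3 had log2 fold changes of 3.92, 4.09 and 2.75 without passing the test (adjusted p = 0.0817, 0.0515 and 0.0855). For AKR1C2 the levels were 0.654, 0.638 and 0.656 CPM in the controls and 22.9, 7.62 and 3.32 CPM with Ocoxin, and these near-identical paralogs share reads, so each value is uncertain. ABCC1, TXN and FTL had log2 fold changes of -0.07, -0.05 and -0.05, and NFE2L2, the gene of NRF2, 0.13 ± 0.042 (adjusted p = 0.143). Of the 11 members none passed in a fit that lacked Ocoxin replicate 2, 1 in the fit that lacked control replicate 2, 2 in that lacking control replicate 3 and 6 in each that lacked replicate 1 of a group, while the median stayed between 0.26 and 0.40 over the 6 fits.

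**Figure D2:**
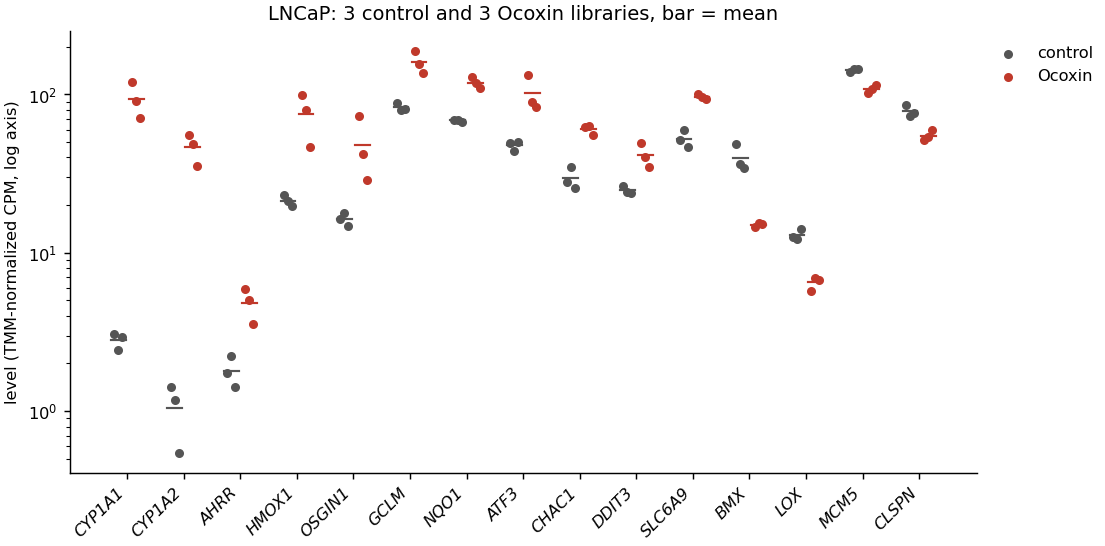
Level (y axis, TMM-normalized CPM, log scale) of 15 altered genes in the 3 control libraries (gray points) and the 3 Ocoxin libraries (red points), with replicates 1 to 3 from left to right and a short line at the mean. The groups do not overlap in any of these genes, as in all 508 altered genes, and the 4 genes at the right (BMX, LOX, MCM5 and CLSPN) are lower with Ocoxin.

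ISR effectors also rose: 8 of 20 tested members rose and none fell, with a median log2 fold change of 0.30, and all 20 fitted values were above 0 (2.4%, 0.58% and 52.4% of all genes). CHAC1, which degrades glutathione, was at 28, 35 and 25.7 CPM in the controls and 62, 63.5 and 55.9 CPM with Ocoxin (log2 fold change 1.03 ± 0.11, edgeR adjusted p = 0.0126). CEBPG, a partner of ATF4, was at 113, 112 and 114 CPM in the controls and 156, 140.4 and 147 CPM with Ocoxin (log2 fold change 0.39 ± 0.046, edgeR adjusted p = 0.0158). The altered members ATF3, DDIT3, CEBPB and STC2 were named after their values were seen. ATF3, a stress transcription factor, was at 49.3, 44 and 49.8 CPM in the controls and 133, 89.5 and 83.4 CPM with Ocoxin (log2 fold change 1.10 ± 0.17, edgeR adjusted p = 0.0257), and again Ocoxin replicate 1 was the highest. DDIT3, the gene of CHOP, was at 26.5, 24.4 and 23.7 CPM in the controls and 49.3, 40.2 and 34.6 CPM with Ocoxin (log2 fold change 0.74 ± 0.13, edgeR adjusted p = 0.0327). TRIB3, ADM2, CEBPB and STC2 rose with log2 fold changes of 0.43, 0.47, 0.71 and 0.26. ATF4 itself had a log2 fold change of 0.06 ± 0.038 (adjusted p = 0.458) with overlapping groups. Of the 8, none passed in a fit that lacked Ocoxin replicate 2, 1 in each fit that lacked control replicate 2 or 3, 2 in the fit that lacked control replicate 1 and 3 in the fit that lacked Ocoxin replicate 1.

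Genes of amino acid supply moved in part. Against 2.4% of all genes, 4 of 16 amino acid transporters rose: SLC6A9, a glycine carrier, at 51.4, 59.2 and 46.6 CPM in the controls and 100.5, 96.8 and 93.8 CPM with Ocoxin (log2 fold change 0.89 ± 0.084, edgeR adjusted p = 0.0113), SLC1A4, a neutral amino acid carrier (0.54), SLC7A11, described above, and SLC7A5, the leucine carrier, named after its values were seen (0.77). Of 20 amino acid synthesis genes 2 rose, beside the same 2.4%, CTH, which makes cysteine (0.42), and PCK2 (0.23). Common ATF4-dependent synthesis genes had small fitted values, 0.13 for ASNS, 0.05 for PHGDH and 0.04 for PSAT1. WARS1 (0.20) was 1 of 20 tRNA synthetases to rise, a share near that of all genes. Of 22 genes of ER chaperones and the unfolded protein response 3 rose (2.4% of all genes), DNAJB9 at 38.9, 34.7 and 39.9 CPM in the controls and 71.7, 59 and 54.2 CPM with Ocoxin (log2 fold change 0.71 ± 0.11, edgeR adjusted p = 0.0257), XBP1 (0.21) and ATF6 (0.22), the last named after its values were seen. Without Ocoxin replicate 2 none of these genes passed, and without control replicate 2 SLC6A9 alone did.

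DNA replication genes moved the other way. Of 46 tested members 9 fell and none rose (0.58% and 2.4% of all genes), the median log2 fold change was -0.27, and all 46 fitted values were below 0, against 47.6% of all genes. MCM5, a subunit of the replicative helicase, was at 139, 146 and 144 CPM in the controls and 103, 108 and 115 CPM with Ocoxin (log2 fold change -0.40 ± 0.049, edgeR adjusted p = 0.0165). MCM7, of the same helicase, was at 198, 197 and 199.6 CPM in the controls and 165, 171 and 174 CPM with Ocoxin (log2 fold change -0.22 ± 0.035, edgeR adjusted p = 0.0257). CLSPN, the replication checkpoint protein Claspin, named like CDC45, GINS2, ORC1, RFC5, LIG1 and MCM4 after its values were seen, was at 85.8, 72.6 and 76.7 CPM in the controls and 51.7, 53.7 and 59.8 CPM with Ocoxin (log2 fold change -0.51 ± 0.081, edgeR adjusted p = 0.0257). In each of these genes the treated libraries lay below all controls. CDC45 and GINS2, of the helicase complex, fell with log2 fold changes of -0.45 and -0.36, ORC1 of the origin complex with -0.30, RFC5 of the clamp loader with -0.30, the ligase LIG1 with -0.35 and MCM4 with -0.28. Of the 9, none passed once replicate 2 of a group or control replicate 3 was left out, 1 once replicate 1 of a group was, and 5 once Ocoxin replicate 3 was. DESeq2 called 18 members lower (0.979% of all genes).

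Mitosis genes had a like median of -0.28, and all 41 fitted values were below 0 (47.6% of all genes), while 1 member passed the test as lower (0.58% of all genes). This was CDCA8 of the chromosomal passenger complex, at 99.8, 96.3 and 102 CPM in the controls and 72.6, 80.9 and 80.4 CPM with Ocoxin (log2 fold change -0.35 ± 0.055, edgeR adjusted p = 0.0257). NDC80 of the kinetochore had a log2 fold change of -0.29 ± 0.061 (adjusted p = 0.052). DESeq2 called 15 of the 41 lower, and CDCA8 passed in 1 of the 6 fits that left out a library. Of 20 genes of homologous recombination and the Fanconi pathway, FANCA (-0.40) and RAD54L (-0.44) fell (0.58% of all genes), with a list median of -0.27. Among 26 tested G1 regulators E2F2, an activator of S phase genes, fell (log2 fold change -0.47 ± 0.07, edgeR adjusted p = 0.0223), beside 0.58% of all genes. CDK6, a kinase of G1, rose from a low level, at 3.16, 1.7 and 1.64 CPM in the controls and 7.05, 6.87 and 5.86 CPM with Ocoxin (log2 fold change 1.60 ± 0.25, edgeR adjusted p = 0.0257), beside 2.4% of all genes. E2F1 (-0.24 ± 0.058, adjusted p = 0.0721), FOXM1 (-0.10 ± 0.057, adjusted p = 0.348) and CDKN1A (0.09) did not pass. Without replicate 2 of either group or control replicate 3 no mitosis, recombination or G1 gene that is altered here passed.

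The medians of these lists differed between the treated libraries. For DNA replication the median over the 46 members, relative to the mean of the controls on the log2(CPM + 0.5) scale, was -0.034, -0.039 and 0.072 in the controls and -0.35, -0.28 and -0.15 with Ocoxin. For mitosis it was -0.038, -0.036 and 0.071 in the controls and -0.45, -0.22 and -0.16 with Ocoxin. The treated libraries lay below all controls in both lists, and Ocoxin replicate 1 lay farthest, as it did in the other direction for NRF2 targets (0.50, 0.30 and 0.26) and ISR effectors (0.34, 0.29 and 0.22). OXPHOS subunits and ribosomal proteins had median log2 fold changes of -0.054 and -0.045, and none of the 78 and 81 members passed. Per library, OXPHOS was at -0.055, -0.066 and -0.054 with Ocoxin, and ribosomal proteins at -0.054, -0.043 and -0.046. All lay below the lowest controls, -0.0095 and -0.0082. Compression of highly expressed genes may hide part of a change, so the lack of calls does not show that these lists were unchanged.

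**Figure D3:**
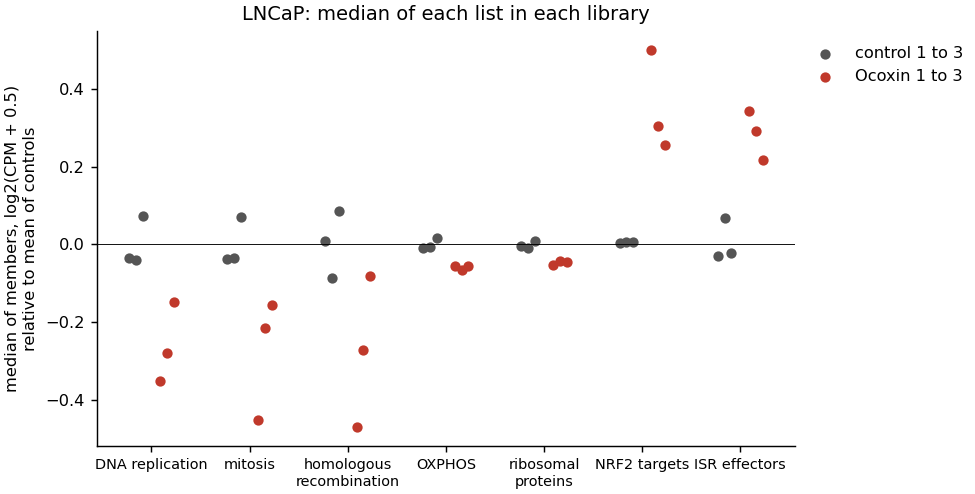
Median over the tested members of 7 gene lists in each of the 6 LNCaP libraries (y axis, log2(CPM + 0.5) relative to the mean of the controls), with controls in gray and Ocoxin libraries in red, replicates 1 to 3 from left to right. DNA replication and mitosis genes are lower and NRF2 and ISR genes higher in every Ocoxin library than in every control. OXPHOS subunits and ribosomal proteins are also lower in every Ocoxin library, by less.

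Of 32 androgen-induced genes 1 rose and 2 fell, against 2.4% and 0.58% of all genes. TRPM8, a cation channel, rose, at 51.2, 56.3 and 66.3 CPM in the controls and 83.7, 88.5 and 93.1 CPM with Ocoxin (log2 fold change 0.61 ± 0.092, edgeR adjusted p = 0.0239), while PMEPA1, at 154, 165 and 155 CPM in the controls and 132, 131 and 130.4 CPM with Ocoxin (log2 fold change -0.27 ± 0.039, edgeR adjusted p = 0.021), and TMPRSS2, a serine protease, at 259, 268 and 264 CPM in the controls and 221, 229 and 231 CPM with Ocoxin (log2 fold change -0.21 ± 0.033, edgeR adjusted p = 0.0257), fell. The groups did not overlap in these 3 genes. The list median was -0.14, and 25 of the 32 fitted values were below 0, against 47.6% of all genes. KLK3, the gene of prostate specific antigen, was at 410.0, 402 and 399 CPM in the controls and 377, 380.1 and 381 CPM with Ocoxin (log2 fold change -0.09 ± 0.029, edgeR adjusted p = 0.137), and is among the genes whose counts are compressed. Of the 12 luminal genes TMPRSS2 alone passed: KLK2, ACP3, SLC45A3, HOXB13 and FOLH1 had log2 fold changes of -0.15, -0.24, -0.14, -0.09 and -0.03, and STEAP2, EPCAM, KRT8 and KRT18 of 0.10, -0.03, -0.02 and -0.00. The transcription factors FOXA1 (-0.07) and GATA2 (-0.01) did not pass. Of 7 UGT2B genes of androgen inactivation and 5 tested neuroendocrine genes none passed, with UGT2B7 at 0.99 ± 0.23 (adjusted p = 0.0685), UGT2B28 at -0.28 ± 0.17, TUBB3 at 1.84 ± 0.58 (adjusted p = 0.132) and SYP at 0.26 ± 0.16. Without replicate 2 of either group or Ocoxin replicate 1 none of the 3 altered androgen-induced genes passed.

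Targets of p53 and genes of cell death moved singly. Among 27 tested p53 targets, SPATA18 (log2 fold change 0.61 ± 0.072, edgeR adjusted p = 0.0147) and TP53I3, a quinone oxidoreductase named after its values were seen (0.66), rose, beside 2.4% of all genes. DDB2, a DNA repair factor of the same list, fell (log2 fold change -0.28 ± 0.042, edgeR adjusted p = 0.0239), beside 0.58% of all genes. Of 15 tested BCL2 family genes 2 rose (2.4% of all genes), the BH3-only genes PMAIP1, the gene of NOXA, at 32.3, 32.3 and 30.6 CPM in the controls and 44.8, 39.8 and 44.9 CPM with Ocoxin (log2 fold change 0.44 ± 0.073, edgeR adjusted p = 0.0286), and HRK, at 0.545, 0.744 and 0.656 CPM in the controls and 1.6, 1.93 and 2.43 CPM with Ocoxin (log2 fold change 1.59 ± 0.29, edgeR adjusted p = 0.0343). Treated libraries exceeded all controls in both, and neither passed in any of the 6 fits that left out a library. None of 8 tested caspases passed, with the lowest p at CASP4 (0.38 ± 0.094, adjusted p = 0.0774) and CASP10 (0.40 ± 0.15, adjusted p = 0.179). MYC (-0.02) did not pass. SPATA18, TP53I3 and DDB2 did not pass without replicate 2 of either group or control replicate 3.

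Among genes of metabolism and metals, 3 of 24 hypoxia and glycolysis genes fell (0.58% of all genes), PKM (-0.17), LDHA (-0.21) and HK2, named after its values were seen (-0.32), with a list median of -0.17, and over the 6 fits that left out a library HK2 passed without control replicate 1 and no other call of the 3 held. HIF1A (-0.07 ± 0.041) did not pass. ME1 alone rose among 14 fatty acid synthesis genes, beside 2.4% of all genes. Of 23 sterol synthesis genes none passed (MVD 0.23 ± 0.057 and EBP -0.11 ± 0.047), nor did SREBF1 (-0.13) or SREBF2 (-0.04). SLC39A10, a zinc importer, fell, at 142, 140.3 and 187 CPM in the controls and 86.6, 102 and 104 CPM with Ocoxin (log2 fold change -0.68 ± 0.12, edgeR adjusted p = 0.0327), and SLC30A1, a zinc exporter, had 0.55 ± 0.13 (adjusted p = 0.0746). MT1F, a metallothionein, was at 3.82, 3.93 and 2.19 CPM in the controls and 12, 8.48 and 4.87 CPM with Ocoxin (log2 fold change 1.35 ± 0.36, edgeR adjusted p = 0.0878), with treated libraries above all controls, but metallothioneins are near-identical copies and their values are uncertain. None of the tested heat shock (14), polyamine (11), autophagy and lysosome (28), PI3K and FOXO (23) and immediate early (17) genes passed. ITGA3, an integrin, rose among 31 adhesion genes (log2 fold change 0.51 ± 0.10, edgeR adjusted p = 0.0484), a share near the 2.4% of all genes.

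**Figure D4:**
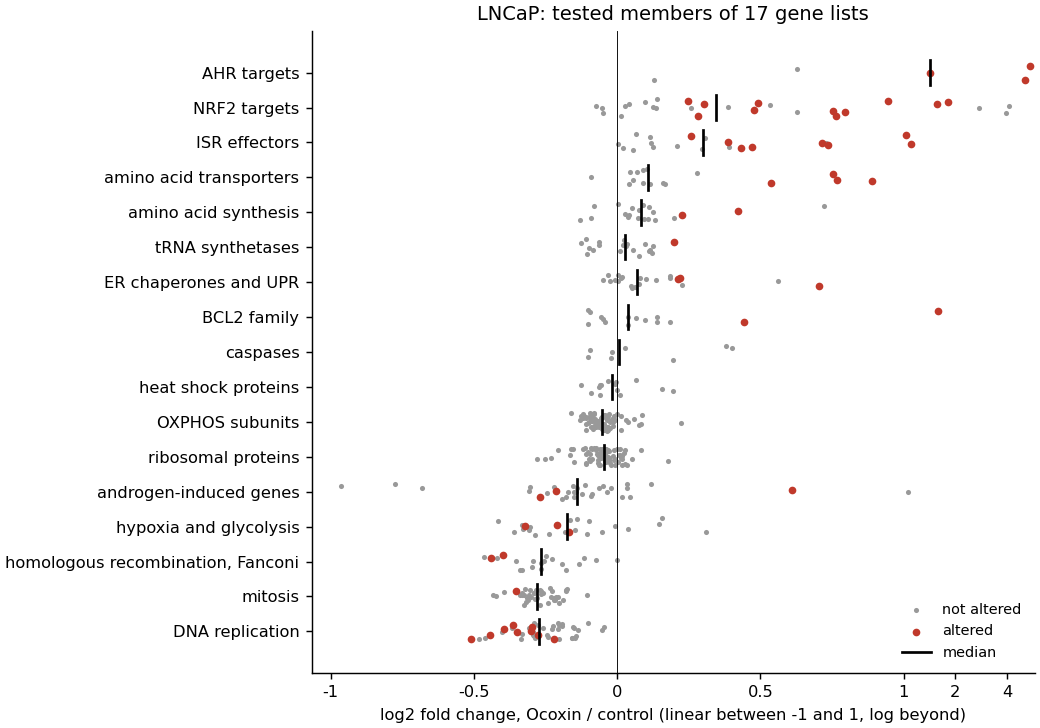
Log2 fold change of Ocoxin over control in LNCaP cells (x axis, linear between -1 and 1 and logarithmic beyond) of every tested member of 17 gene lists, altered members in red, others in gray, with a black line at the list median. AHR, NRF2 and ISR genes lie to the right and DNA replication, mitosis and recombination genes to the left of 0.

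The 10 largest rises among the altered genes (with a symbol, at least 1 CPM on average and no overlap) include CYP1A1, CYP1A2 and 8 others. NMRAL2P, a pseudogene, held 2 counts in the 3 controls together and 93, 37 and 14 counts in the Ocoxin libraries, 144 in all, a ratio of 72.2 (exact 95% interval 19.6 to 602, counting error only). The ratios of other genes with at most 3 counts in each control were 33.4 (11.1 to 165) for FIBIN, 16.2 (7.18 to 45.2) for UGT1A1, 14.3 (5.28 to 54.2) for PTHLH, the parathyroid hormone-like hormone, 12.03 (5.59 to 30.8) for FOXQ1, a forkhead factor, and 10.7 (4.65 to 30.2) for RAB7B, a small GTPase. UGT1A1, a glucuronosyltransferase of bilirubin, shares exons with other UGT1A genes, and reads there were left unassigned, so its value is uncertain. MB21D2 was at 0.545, 0.532 and 0.437 CPM in the controls and 7.27, 5.79 and 4.09 CPM with Ocoxin (log2 fold change 3.47 ± 0.32, edgeR adjusted p = 0.0113) and GPAT3, an acyltransferase of lipid synthesis, at 0.545, 1.7 and 1.31 CPM in the controls and 16.8, 8.26 and 5.86 CPM with Ocoxin (log2 fold change 3.10 ± 0.52, edgeR adjusted p = 0.0296). In NMRAL2P, FIBIN, PTHLH and GPAT3 Ocoxin replicate 1 was the highest, while FOXQ1 was at 3.10, 2.90 and 3.10 CPM. Of the 6 fits that left out a library, NMRAL2P, FIBIN and PTHLH passed in 1, UGT1A1 and GPAT3 in 2, RAB7B in 3, and FOXQ1 and MB21D2 in 4. The fitted log2 fold change of NMRAL2P ranged from 5.02 to 8.58 over these fits, the highest without control replicate 1, when the controls left held 0 counts.

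The largest falls were smaller than the largest rises. PKP1, a desmosome protein, was at 6, 7.76 and 6.56 CPM in the controls and 2.56, 2.36 and 1.33 CPM with Ocoxin (log2 fold change -1.69 ± 0.24, edgeR adjusted p = 0.0195). BMX, a tyrosine kinase (chrX:15464246-15556529), was at 48.4, 36.2 and 34.2 CPM in the controls and 14.5, 15.3 and 15.2 CPM with Ocoxin (log2 fold change -1.40 ± 0.14, edgeR adjusted p = 0.0126). GRPR, the receptor of gastrin-releasing peptide, was at 10.7, 8.51 and 9.07 CPM in the controls and 2.89, 4.61 and 4.43 CPM with Ocoxin (log2 fold change -1.24 ± 0.19, edgeR adjusted p = 0.0257). In all 3 the controls lay above every treated library. LOX, which cross-links collagen, was at 12.6, 12.2 and 14.1 CPM in the controls and 5.77, 6.97 and 6.75 CPM with Ocoxin (log2 fold change -0.998 ± 0.13, edgeR adjusted p = 0.0165). VWF was at 80.1, 82.5 and 71.9 CPM in the controls and 42.6, 56.5 and 42.1 CPM with Ocoxin (log2 fold change -0.73 ± 0.12, edgeR adjusted p = 0.0257), and the other 3 endothelial markers (PECAM1, CDH5 and TEK) held at most 4 counts in any library. SMAD6, an inhibitor of BMP signaling, RIPOR2 and PLA1A, a phospholipase, fell with log2 fold changes of -0.68, -0.65 and -0.63, and the pseudogene TFDP1P2, whose reads its parent gene may share, with -0.74. PKP1, LOX and RIPOR2 passed in 3 of the 6 fits that left out a library, BMX in 4, PLA1A in 2, GRPR, VWF and SMAD6 in 1, and SLC39A10 and TFDP1P2 in none.

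The LNCaP response was then set against the mean response of BxPC-3, SW620 and HCC-70 cells, in a fit of all 24 libraries. Of 24631 genes 479 differed (1.94%), 275 with the higher (1.12%) and 204 with the lower value (0.828%) in LNCaP. Dilution, cell line and counting run (LNCaP reads were counted without the paired-end option) cannot be told apart here. The LNCaP libraries held 9063968 to 9520969 counts, at most 0.995 per exonic base. The others held 25160757 to 39009959 counts, with maxima of 34.1 to 49.0 per base. Compression of highly expressed genes thus applies to LNCaP, and its part in smaller LNCaP changes was not tested. CYP1A1 differed by 4.13 on the log2 scale, with changes of -0.49 in BxPC-3, 1.19 in SW620 and 2.01 in HCC-70. CYP1A2, with low counts elsewhere, did not pass. Of 28 NRF2 genes 8 were higher in LNCaP and none lower (1.12% and 0.828% of all genes), GCLM (0.80), NQO1 (0.58), HMOX1 (1.21) and OSGIN1 (1.31) among them, while TXNRD1 did not pass, with 0.65 in BxPC-3 and 0.25 in LNCaP. Of 20 ISR genes CEBPG (0.27) alone differed, whereas CHAC1, TRIB3 and ADM2 did not pass, and their changes in BxPC-3 were 1.37, 0.86 and 1.13. Of 46 replication genes 21 were lower in LNCaP and none higher, with a median difference of -0.26. Of the 9 that fell in LNCaP, MCM5 (-0.39), MCM7 (-0.20), CDC45 (-0.49), CLSPN (-0.53), LIG1 (-0.41) and ORC1 (-0.31) were among the 21, and GINS2, RFC5 and MCM4 did not pass. Of 41 mitosis genes 7 were lower and none higher. MT1G rose by 4.14 in BxPC-3, 2.39 in SW620 and 1.86 in HCC-70 and had 0.49 in LNCaP, a difference of -2.34.

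**Figure D5:**
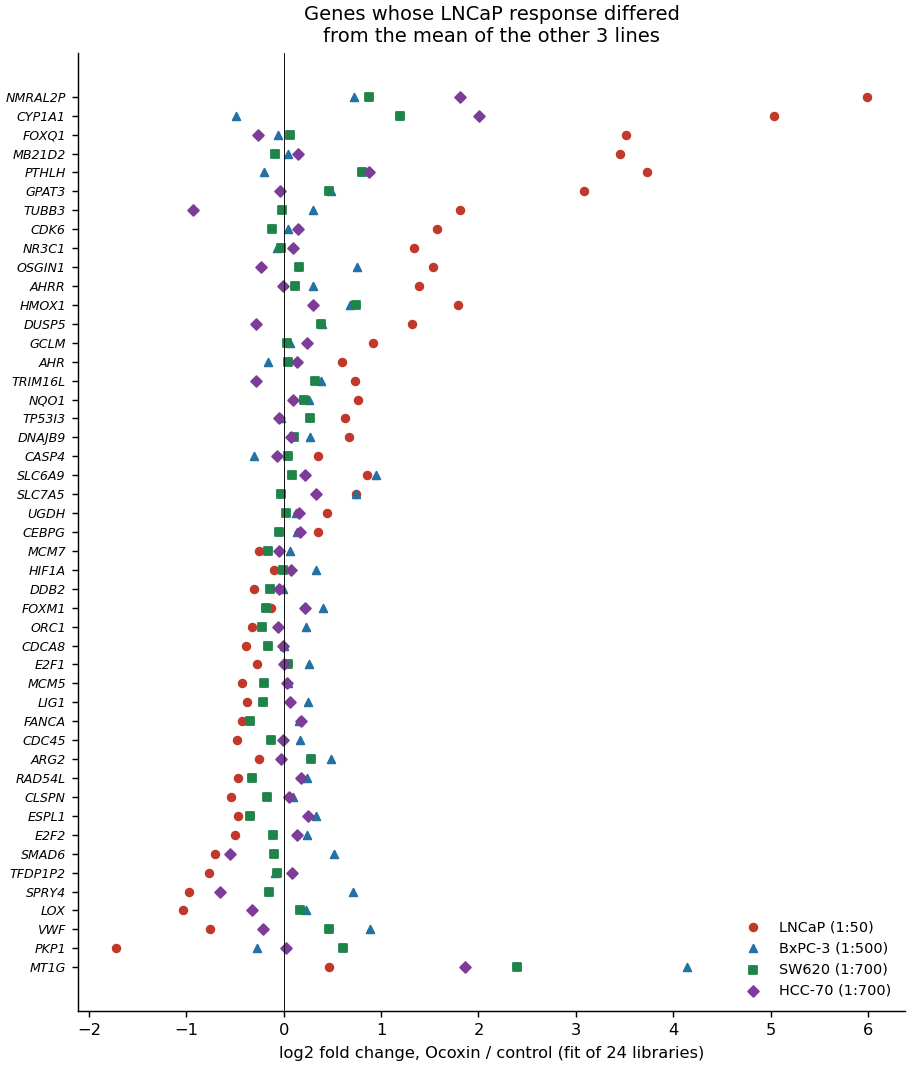
Log2 fold change of Ocoxin over control (x axis, from the fit of 24 libraries) in LNCaP, BxPC-3, SW620 and HCC-70 cells for 47 named genes whose LNCaP response differed from the mean of the other lines and which held at least 60 counts over the 6 libraries of each other line. LNCaP lies at the right end for CYP1A1, FOXQ1 and GCLM and at the left end for replication genes such as MCM5, and MT1G is the one gene where LNCaP lies left of the others while its value is above 0.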

How the data were processed

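Per the paper's methods, the authors used fastp for trimming, STAR for alignment (hg38), picard to remove duplicates and featureCounts (2.0.3 in the file header) to count exonic reads. The deposited values are whole counts per gene, not normalized. The LNCaP table was counted without the paired-end option and without strand, and reads on exons shared by genes were not assigned, so overlapping and antisense genes are uncertain. Gene symbols matched 56948 of 58051 identifiers.

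LNCaP libraries were tested with edgeR 4.0.16 in R 4.3.3 (filterByExpr, TMM, robust quasi-likelihood F-test, two-sided, Benjamini-Hochberg over all genes tested). Levels are CPM. The response of the other lines was compared with an interaction term over 24 libraries. On simulated counts of 16801 genes, 3 against 3, the test recovered 86 of 98 genes changed 2-fold and 96 of 96 changed 4-fold, with 9 false calls. The recovery asked of this simulation was lowered to 80% after a first limit of 90% had been missed. Every simulated gene had the same dispersion and no change was smaller than 2-fold, so recovery of smaller changes was not tested.

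Named genes were the 10 largest rises and falls among altered genes with a symbol, at least 1 CPM and no overlap, the 2 members of lowest p in each of 39 lists, and all listed regulators, luminal genes and genes the study shares across lines. Some of these are not reported here. The members and lists were chosen with earlier results of these data known. Alternatives were DESeq2 1.42.0, its size factors, other filters, the replicate block, a length and GC trend (spline, 5 degrees of freedom), a correction for reads with the same start, all 24 libraries and each library left out. The trend with each library put back at its TMM level, and the same-start correction with the block, were added after the data were seen. Wilson and exact intervals cover counting error only.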

Additional observations from a re-analysis of the deposited data

Results flagged for a closer look

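Of the named genes, 49 had a response in LNCaP that differed from the mean response of BxPC-3, SW620 and HCC-70 cells (edgeR interaction test over 24 libraries, adjusted p under 0.05). Values are the LNCaP log2 fold change minus the mean of the other 3 lines. Dilution, line, counting run, total counts and count compression differ together between LNCaP and the others and cannot be told apart.

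Higher in LNCaP were most of the genes with the largest rises, with 4.85 for NMRAL2P, 4.13 for CYP1A1, 3.61 for FOXQ1, 3.42 for MB21D2, 3.24 for PTHLH, 3.10 for UGT1A1, 2.87 for RAB7B and 2.77 for GPAT3. CYP1A2 and FIBIN, with low counts in other lines, did not pass. UGT1A1 and RAB7B held 14 and 30 counts over the SW620 libraries, where they changed by 1.46 and 1.64. Their differences are therefore uncertain. AHRR differed by 1.25 and AHR by 0.59. The NRF2 genes OSGIN1, HMOX1, GCLM, TRIM16L, NQO1 and UGDH differed by 1.31, 1.21, 0.80, 0.59, 0.58 and 0.34. The stress and amino acid genes DNAJB9, SLC6A9, SLC7A5 and CEBPG differed by 0.52, 0.44, 0.39 and 0.27. Other genes with a higher value were TUBB3 (2.03), CDK6 (1.55), NR3C1 (1.33), DUSP5 (1.15), TP53I3 (0.56) and CASP4 (0.46).

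Lower in LNCaP were the replication genes CLSPN (-0.53), CDC45 (-0.49), LIG1 (-0.41), MCM5 (-0.39), ORC1 (-0.31) and MCM7 (-0.20), and further cell cycle and repair genes, E2F2 (-0.59), ESPL1 (-0.55), RAD54L (-0.51), FANCA (-0.42), E2F1 (-0.38), CDCA8 (-0.33), FOXM1 (-0.28) and DDB2 (-0.24). The paper reports that Ocoxin lowered ESPL1 and RAD54L in SW620 as well, and raised both in BxPC-3 and HCC-70. A difference from the mean of the other lines thus need not hold against each line. Among the largest falls PKP1, VWF, LOX, TFDP1P2 and SMAD6 differed by -1.84, -1.14, -1.05, -0.75 and -0.66. The remaining differences were -2.34 for MT1G, -0.94 for SPRY4, -0.50 for ARG2 and -0.23 for HIF1A.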

How the results depend on the processing

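The sign of the change of the named altered genes was the same under every alternative run, and 69 of the 75 passed with DESeq2. The number of altered genes (508), of which 80.5% rose, and the members altered among DNA replication (9) and mitosis (1) genes moved with the setting. The share that rose was 71.9% with DESeq2 (18 replication and 15 mitosis genes, of 619 altered), 76.3% with DESeq2 size factors (494 altered, 2 mitosis genes), 73.3% after the same-start correction (15 and 2), 63.2% of 1092 without a filter (29 and 22) and 59.2% of 998 in 1 fit of all 24 libraries (34 and 31). Without a filter the median log2 fold change of AHR targets was 2.05, and with at least 10 counts in every library 1.03.

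Removal of the length and GC trend as planned gave 2475 altered genes, 27.9% of which rose, a reversal of the split, with 40 replication genes (median -0.34) and 36 mitosis genes altered. This fit also lowered the median of all genes from 0.0088 to -0.062. Once that had been seen, each library was put back at its TMM level, which gave 1070 altered genes, 68.6% up, with 18 and 14. Both versions are given, since the second was chosen with the result of the first known. Of the 508 genes, 491 passed in the planned version and 506 in the recentred one, and all 508 kept their direction in both.

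The replicate numbers did not meet the criterion for pairing: same-numbered libraries correlated in their deviations by 0.236, 0.0912 and 0.407, the second under 0.1, and Ocoxin replicate 2 correlated more with control replicate 1 (0.0943). Differently numbered libraries correlated by -0.312 to 0.0943. The second principal component (22.3% of the variance) put replicates 1 to 3 in the same order in both groups. They lay at 24.6, 7.23 and -15.9 in the controls and at 5.42, -1.53 and -19.7 with Ocoxin. Part of the spread may thus follow the replicate number, which the main test does not take into account. With the replicate block 1451 genes were altered (68.4% up, 35 and 28), all 508 among them, and 1154 differed between LNCaP and the other lines against 479. The block with the planned trend gave 5446 (27.7% up, 45 with a median of -0.34, and 39, with 19 NRF2 and 13 ISR genes), with the recentred trend 3602 (59.1% up, 42 and 36, with 20 NRF2, 15 ISR and 5 AHR genes) and with the same-start correction 1543 (63.1% up, 36 and 31). The recentred trend and the same-start correction with the block were chosen after the data were seen.

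Leaving out 1 library gave 3 to 398 altered genes, 79.1 to 100% of which rose, and 232 to 519 genes that differed from the other lines. The counts ranged from 0 to 12 for NRF2, 0 to 8 for ISR, 2 to 3 for AHR, 0 to 12 for replication and 0 to 4 for mitosis genes. The medians ranged from 0.26 to 0.40, 0.24 to 0.36, 1.25 to 1.59, -0.32 to -0.22 and -0.34 to -0.20. The causes of these shifts were not tested. The 3 libraries a group and counts under 1 per exonic base limit what can be called.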

Other observations

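The remaining named genes moved by values that did not pass the test. Among immediate early genes DUSP5, a phosphatase of ERK, was at 4.58, 3.19 and 3.61 CPM in the controls and 14.1, 7.72 and 6.97 CPM with Ocoxin (log2 fold change 1.34 ± 0.31, edgeR adjusted p = 0.0626), and SPRY4, an inhibitor of receptor tyrosine kinase signaling, at 10.8, 10.7 and 7.54 CPM in the controls and 4.92, 6.65 and 3.54 CPM with Ocoxin (log2 fold change -0.94 ± 0.24, edgeR adjusted p = 0.0816). Both had groups without overlap, as had 4710 of the 17070 genes tested, and opposite directions. NR3C1, the glucocorticoid receptor, was at 1.09, 0.957 and 1.09 CPM in the controls and 4.17, 1.93 and 1.99 CPM with Ocoxin (log2 fold change 1.36 ± 0.38, edgeR adjusted p = 0.0993), with every treated library above the controls. FOXO1 (0.43) and DEPTOR (0.37) of PI3K signaling, ATG4A (0.26) and SQSTM1 (0.26) of autophagy and SESN2 (0.39) had log2 fold changes above 0, and ESPL1, the separase (-0.44), and the kinesin KIF20A (-0.40) below 0.

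Of 13 genes that the study names across its cell lines 6 rose and 2 fell in LNCaP, beside 2.4% and 0.58% of all genes. The paper, using DESeq2, reports all 13 as altered in each cancer, and gives their directions by RT-qPCR too. ESPL1, SLC30A1, SESN2, KIF20A and MT1F had the paper's direction here but missed the cutoff (edgeR adjusted p = 0.0656 to 0.0878). The study chose the 13 on these libraries, so their RNA-seq values are not independent evidence. The markers of other cells gave -0.75 for KRT14, 0.40 for LGALS4, -0.74 for COL3A1 and 0.83 for PDGFRB as log2 fold changes. Further values were -0.11 for SDHA of OXPHOS, -0.23 for RPS26 and -0.15 for RPS24 of the ribosome, -0.09 for HSP90AA1 and 0.16 for HSPA4L of heat shock, -0.22 for ARG2 and -0.09 for SMS of polyamine synthesis, -0.13 for FARSB, 0.20 for ACACB and -0.14 for VCL. The regulators MTF1 (0.17), BACH1 (0.05) and KEAP1 (0.04) did not pass either.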
